A study of Aspergillus nidulans with 6 samples.

Results

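Chitin synthases are the membrane enzymes that build chitin, a polymer of N-acetylglucosamine and a structural part of the fungal cell wall. The family studied here holds the 8 chitin synthase genes of Aspergillus nidulans, chosen by a rule on gene identifiers (AN7032, AN2523, AN4566, AN1555, AN1046, AN4367, AN6317 and AN6318), which uses no measured value. They are 8 of the 10988 features of the deposited table, and all 8 had enough reads to be tested. RNA was sequenced from mycelium of the wild type strain FGSC A4, shaken at 37 °C in Barratt's minimal broth. The 3 tyrosol libraries came from cultures given 35 mM tyrosol in the exponential phase of growth, and the 3 untreated libraries from cultures without it. Tyrosol, a phenolic alcohol made from tyrosine, is known as a quorum-sensing molecule of the yeast Candida albicans.

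Filamentous fungi carry several classes of chitin synthase, which act at growing hyphal tips, at septa and during sporulation. The enzymes add N-acetylglucosamine units from the nucleotide sugar UDP-N-acetylglucosamine to a growing chain, which is pushed out through the plasma membrane. The names csmA (AN6318) and csmB (AN6317) are used here for the pair whose proteins join a chitin synthase to a region like a myosin motor. The gene table used for symbols follows names common in Aspergillus fumigatus and lists AN6318 as chsE, AN4566 as chsA, AN7032 as chsB, AN2523 as chsG, AN1555 as chsF and AN1046 as chsD. It gives AN4367 no symbol. Older A. nidulans names use the same letters for other members, so the identifiers are used throughout. In A. fumigatus these symbols stand for enzymes of class I (chsA), class II (chsB), class III (chsG), class IV (chsF), class V (csmA, also called chsE) and class VI (chsD). The classes named below are carried over from these symbols.

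After tyrosol, 7 of the 8 chitin synthase transcripts were lower and 1 was higher. The falls ran from 1.41-fold for AN1555 to 9.18-fold for AN4367, and the single rise was 2.89-fold, for AN1046. The 3 members most abundant without tyrosol, AN2523, AN6317 and AN6318, were all lower, by 2.69-fold, 1.97-fold and 2.57-fold. Summed over the family, the level was 180 ± 17.2 RPKM with tyrosol and 463 ± 50.1 RPKM without (SD, n = 3 each). RPKM scales the reads of a gene by its listed length and by the library's counted reads, so it allows levels of different genes to be compared. Fold changes use edgeR's TMM scaling of the libraries instead, so they differ from ratios of RPKM means. In bulk RNA, fewer hyphae with a transcript and less of it per hypha cannot be told apart.

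These counts stand against a broad response. Calls rest on edgeR's quasi-likelihood test over all 8905 features tested, at an adjusted p (Benjamini-Hochberg) under 0.05. By that rule 42.9% of the tested features were lower and 40.6% higher, against 7 and 1 of the 8 chitin synthase genes. A fall of at least 2-fold was called for 4 members and for 24.5% of tested features, and a rise of at least 2-fold for 1 member and for 23.1%. The median log2 fold change, tyrosol over untreated, was -1.17 over the 8 members and -0.04 over all tested features. The 3 tyrosol libraries lay entirely outside the range of the 3 untreated ones for all 8 members, as they did for 84.8% of tested features. The libraries held 9353438 to 11917409 counted reads. The labels do not say that replicates came from separate cultures, so the spread behind the p-values may be partly or wholly technical.

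**Figure D1:**
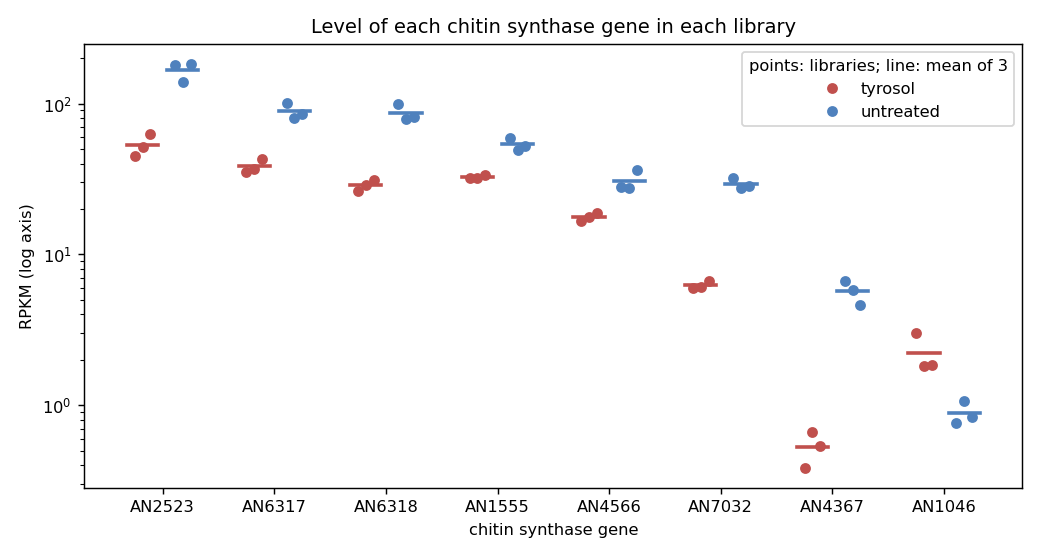
RPKM on a log axis for each of the 8 genes, with tyrosol libraries (red) left of untreated libraries (blue); points are single libraries and lines the mean of 3. The red points lie under the blue ones for 7 genes and above them for AN1046, with no overlap in any gene.

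AN2523, the class III gene, was the most abundant member in both groups. Loss of the class III enzyme severely impairs hyphal growth in A. nidulans. Its level was 45.2, 51.6 and 62.8 RPKM in the tyrosol libraries, against 181, 139 and 182 RPKM in the untreated libraries. Each untreated library was more than any tyrosol library, and untreated replicate 2 was the lowest of its group. The log2 fold change was -1.43 ± 0.13 (SE; edgeR adjusted p = 3.2e-07). By level this gene stood above 76.9% of tested AN-numbered genes with tyrosol and above 92.3% of them without.

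The myosin-linked genes csmA (AN6318) and csmB (AN6317) stand next to each other in the reference gene order. In A. nidulans both take part in polarized growth and in keeping the hyphal wall intact. The csmA transcript had 26.3, 28.8 and 31.2 RPKM in tyrosol libraries, against 98.6, 78.7 and 81.4 RPKM in untreated libraries. For csmB the values were 35.4, 36.8 and 43.0 RPKM with tyrosol, against 101, 80.0 and 85.2 RPKM without. Tyrosol replicate 3 was the highest of its group and untreated replicate 1 the highest of its group for both genes. Their log2 fold changes were -1.36 ± 0.11 for csmA (edgeR adjusted p = 5.4e-08) and -0.98 ± 0.11 for csmB (adjusted p = 1.8e-06).

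The pair was close to equal in level without tyrosol and unequal with it. The ratio of csmA to csmB RPKM was 0.744, 0.783 and 0.725 in the tyrosol libraries, against 0.980, 0.984 and 0.955 in the untreated ones. A ratio within a library does not depend on how libraries are scaled. The difference of the log2 ratios, tyrosol minus untreated, was -0.38, and the groups did not overlap (exact two-sided permutation test, p = 0.1, the smallest p that 3 against 3 allows).

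AN7032, the class II gene, and AN4566, the class I gene, belong to classes that act together in septum formation and conidiophore development in A. nidulans. The AN7032 transcript had 6.02, 6.13 and 6.71 RPKM with tyrosol, against 32.1, 27.6 and 28.6 RPKM without. No tyrosol library came close to an untreated one. The fall was 4.003-fold, a log2 fold change of -2.001 ± 0.099 (edgeR adjusted p = 5.5e-10). AN4566 had 16.8, 17.6 and 18.9 RPKM in tyrosol libraries, against 28.1, 27.7 and 36.1 RPKM in untreated libraries. Untreated replicate 3 was the well above the rest of its group, and even the lowest untreated library stood above every tyrosol library. The AN4566 log2 fold change was -0.56 ± 0.11 (edgeR adjusted p = 0.00032).

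Both genes had about the same level without tyrosol. The ratio of AN7032 to AN4566 RPKM was 0.359, 0.349 and 0.355 in the tyrosol libraries, against 1.14, 0.995 and 0.791 in the untreated libraries. The tyrosol ratios were close to one another, and all lay under the untreated ones. The log2 difference was -1.45, a ratio 0.367 times that of untreated cultures (exact two-sided permutation test, p = 0.1, again the smallest possible).

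AN1555, the class IV gene, is a relative of the yeast enzyme Chs3, which makes most of the wall chitin of Saccharomyces cerevisiae. Its fall was among the smallest in the family, close to that of AN4566. Its level was 32.0, 32.2 and 33.6 RPKM with tyrosol, against 59.3, 49.0 and 52.4 RPKM without. The CV was 2.61% over the tyrosol libraries and 9.79% over the untreated libraries, and the groups did not overlap. The log2 fold change was -0.49 ± 0.09 (edgeR adjusted p = 0.00021).

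The remaining members were weakly expressed, and they moved in opposite directions. AN4367, which has no symbol in the reference table, had 12, 22 and 18 reads in the tyrosol libraries, against 233, 203 and 126 reads in the untreated libraries. In RPKM this was 0.386, 0.670 and 0.536 with tyrosol, against 6.70, 5.84 and 4.61 without. No tyrosol library came near an untreated one. The log2 fold change of -3.20 ± 0.22 (edgeR adjusted p = 1.6e-08) was the largest fall in the family, and 3.07% of tested features had a lower value.

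AN1046, class VI only by its A. fumigatus symbol, had 73, 47 and 49 reads with tyrosol, against 21, 29 and 18 reads without. The RPKM values were 2.997, 1.82 and 1.86 in the tyrosol libraries, against 0.769, 1.06 and 0.840 in the untreated libraries. Tyrosol replicate 1 stood above the rest of its group, and all 3 tyrosol libraries stood above every untreated one. The log2 fold change was 1.53 ± 0.25 (edgeR adjusted p = 8.2e-05), with the widest SE in the family. With so few reads the size of this rise is imprecise. In a filter that asked for at least 50 reads in 3 libraries AN1046 was not tested, and no member was then called higher.

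**Figure D2:**
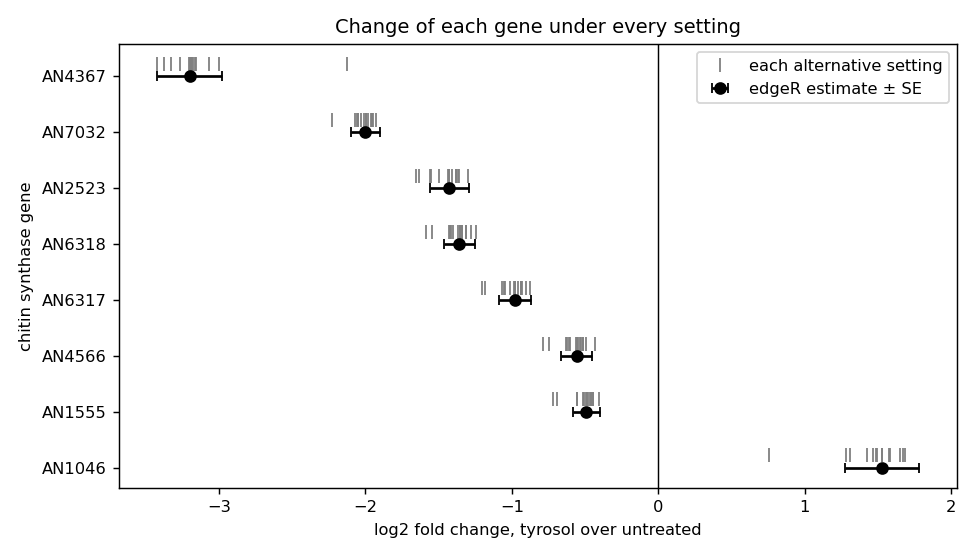
Log2 fold change of each gene, tyrosol over untreated (horizontal axis), as edgeR estimates with SE (black) and under every alternative setting (grey ticks). All estimates of 7 genes lie left of 0 and all estimates of AN1046 right of it; the grey ticks nearest 0 for AN4367 and AN1046 come from log2(RPKM + 1), which draws weakly expressed genes toward 0.

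Among all tested features, the chitin synthase genes were spread over much of the lower part of the distribution. Their log2 fold changes exceeded those of 3.07% of features for AN4367, 10.3% for AN7032, 17.2% for AN2523, 18.3% for AN6318 and 24.8% for AN6317. For AN4566 and AN1555 the shares were 35.3% and 37.0%, and for AN1046 84.9%. When libraries were scaled by their size alone, the median of all features shifted by -0.22 on the log2 scale, and each of the 8 genes kept its direction and its call.

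**Figure D3:**
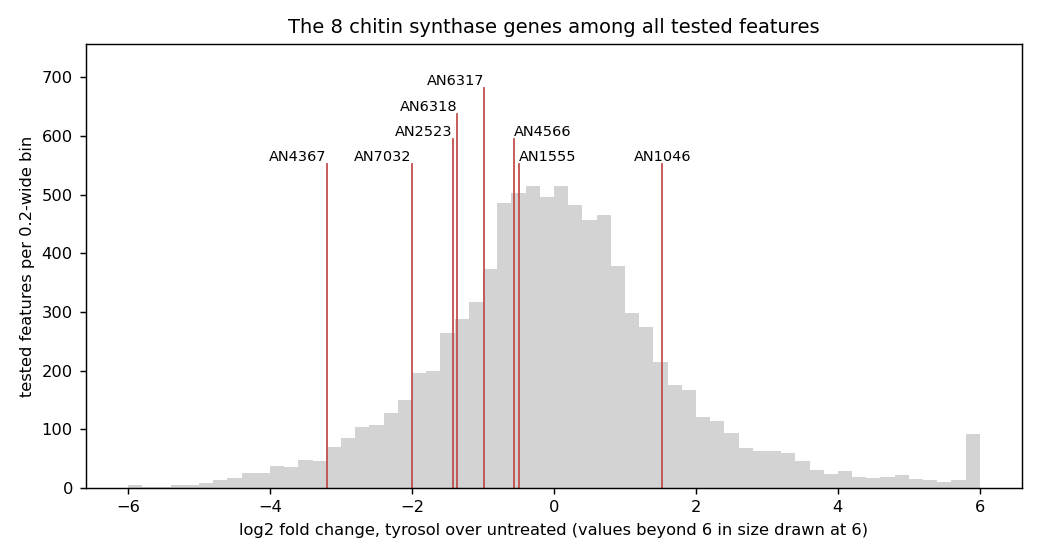
Histogram of the log2 fold change, tyrosol over untreated, of all 8905 tested features (grey; vertical axis, features per bin), with the 8 chitin synthase genes as red lines. The 7 lowered genes lie between -3.20 and -0.49 and AN1046 lies at 1.53.

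The order of levels within the family, in RPKM, differed between the groups. With tyrosol the order was AN2523, AN6317, AN1555, AN6318, AN4566, AN7032, AN1046 and AN4367, and no neighbours overlapped over 3 libraries. Without tyrosol it was AN2523, AN6317, AN6318, AN1555, AN4566, AN7032, AN4367 and AN1046. There AN6317 and AN6318 did not differ beyond their spread, and neither did AN4566 and AN7032. The highest and lowest members were 100.2-fold apart in mean RPKM with tyrosol and 188-fold apart without.

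A pair of exchanges of place made up this difference in order, and both were picked out for it after the values were seen, so they carry no test. AN1555 over AN6318 had RPKM ratios of 1.22, 1.12 and 1.08 with tyrosol, against 0.601, 0.623 and 0.644 without (log2 difference 0.87). AN1046 over AN4367 had ratios of 7.75, 2.72 and 3.47 with tyrosol, against 0.115, 0.182 and 0.182 without (log2 difference 4.74). The exchange of AN1555 and AN6318 rests on dividing by length: as shares of the family's reads, AN1555 stood under AN6318 with tyrosol (16.9% and 22.6%) and without (10.8% and 26.4%).

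As shares of the summed RPKM, the family's make-up differed between the groups, with a smaller part for AN2523 and larger parts for AN1555 and AN4566 with tyrosol. AN2523 held 29.5 ± 2.099% of the summed RPKM with tyrosol and 36.1 ± 2.40% without (SD, n = 3 each). AN1555 held 18.2 ± 1.25% with tyrosol and 11.6 ± 0.454% without, and AN4566 held 9.90 ± 0.327% with tyrosol and 6.66 ± 1.06% without. AN7032 held 3.51 ± 0.134% with tyrosol, against 6.38 ± 0.347% without. The share of csmA was 16.01 ± 0.349% with tyrosol and 18.7 ± 1.21% without, while that of csmB was 21.3 ± 0.370% with tyrosol and 19.2 ± 0.948% without. AN1046 made up 1.26 ± 0.481% with tyrosol and 0.197 ± 0.0567% without, and AN4367 made up 0.295 ± 0.0770% with tyrosol and 1.242 ± 0.235% without. Shares were higher with tyrosol for 4 members, and for all 8 the 2 groups of libraries did not overlap. The shares of a library add up to the whole, so they do not move independently. In level, 84.8% of tested features were apart between the groups as well. For AN1555, AN4566 and csmB the share was higher with tyrosol although the level itself was lower. A share is a description of these libraries, with no test.

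**Figure D4:**
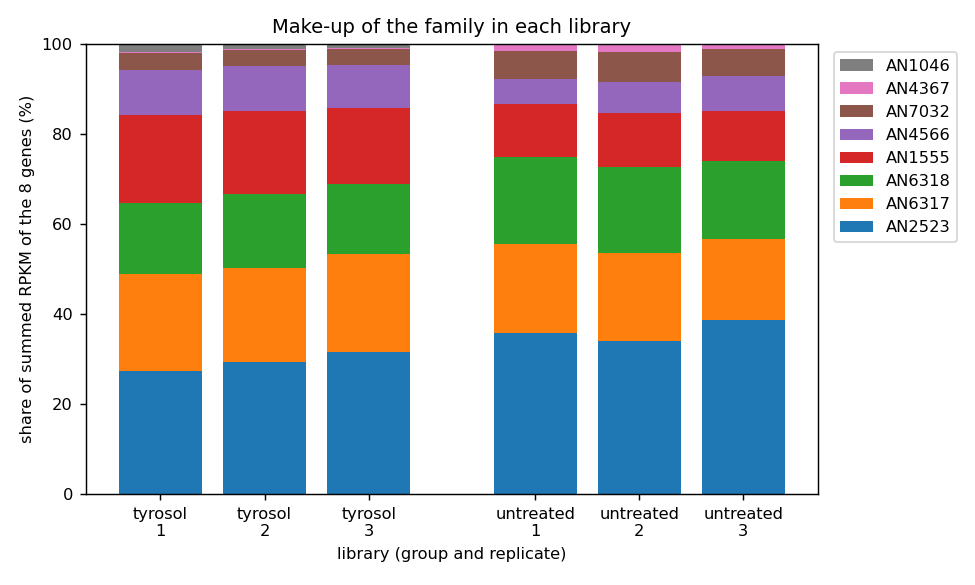
Share of each gene in the summed RPKM of the 8 genes (vertical axis, percent) in every library, tyrosol libraries left of untreated ones. AN2523, AN6317 and AN6318 together hold 66.8 ± 2.12% with tyrosol and 73.9 ± 1.10% without (SD, n = 3 each).

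Genes listed for the supply of the enzymes' substrate were lower as well, though the reference symbols bear out this role only for gfa1 and agm1. A list of 4 genes drawn up for the supply of UDP-N-acetylglucosamine had all 4 members lower, against 42.9% of tested features. Its median log2 fold change was -1.45. One of them, AN8706, has the symbol gup1 in the reference table, which goes against its place in this list; without it all 3 were lower, with a median of -1.39. The gfa1 gene (AN10709) encodes the amidotransferase that commits fructose 6-phosphate to this route. It had 195 ± 16.4 RPKM with tyrosol and 595 ± 73.7 RPKM without (SD, n = 3 each; log2 fold change -1.39 ± 0.10, edgeR adjusted p = 3.2e-08). The phosphoacetylglucosamine mutase gene agm1 (AN4234) changed least, with 91.6 ± 0.757 RPKM against 128 ± 8.67 RPKM without tyrosol (-0.26 ± 0.08, edgeR adjusted p = 0.0095). AN9094, unnamed in the reference table, had a log2 fold change of -1.69 ± 0.10, and AN8706 one of -1.52 ± 0.12.

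A second list of 4 genes, for chitin breakdown and modification, had 2 lower, 0 higher and 2 not called, with a median of -0.74. The chitinase gene chiA1 (AN8241) had 170 ± 9.23 RPKM with tyrosol and 194 ± 45.0 RPKM without. Its log2 fold change, scaled by TMM, was 0.03 ± 0.14 (edgeR adjusted p = 0.85). The RPKM means and the fold change thus differ in direction, because their scaling differs. Its untreated libraries differed widely among themselves. Among the unnamed genes of the list, AN1502 had -2.41 ± 0.13 and AN4871 had -1.29 ± 0.10, both called lower, and AN9380 had -0.19 ± 0.09, not called (edgeR adjusted p = 0.079).

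All 3 genes of a glucan synthase list were lower, with a median of -1.24. The α-glucan synthase genes ags2 (AN5885) and ags1 (AN3307) had log2 fold changes of -1.38 ± 0.13 and -1.24 ± 0.11, and the unnamed AN3729 one of -0.69 ± 0.11. These lists are read against the same 42.9% of tested features that were lower.

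**Figure D5:**
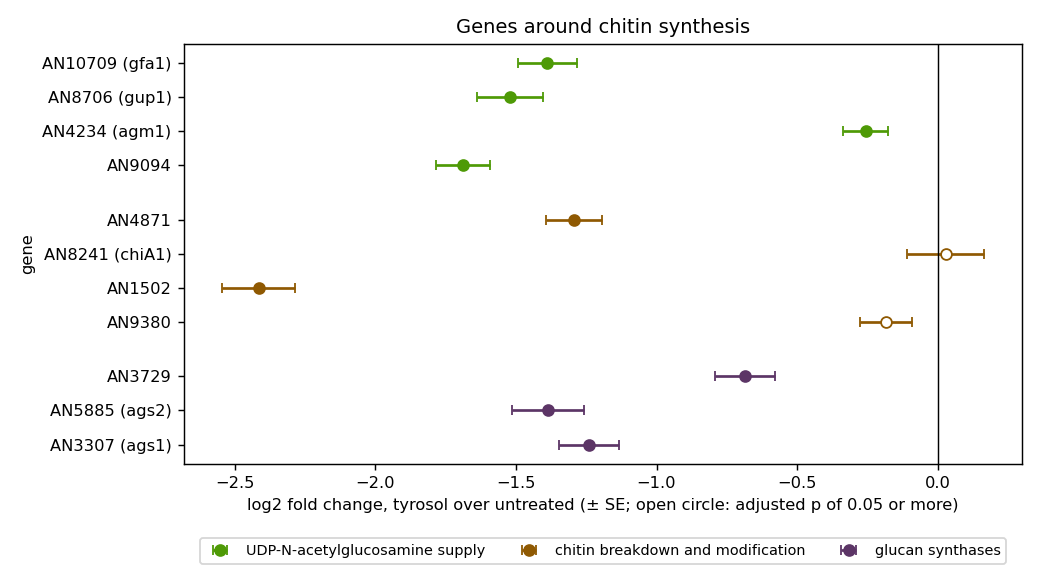
Log2 fold change, tyrosol over untreated, with SE for the genes of the lists for substrate supply (green), chitin breakdown and modification (brown) and glucan synthesis (purple); open circles were not called. AN8241 lies at 0.03 and AN1502, the lowest, at -2.41.

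Actin, glyceraldehyde phosphate dehydrogenase and the rest of a list of 4 genes drawn up for growing hyphae were abundant in both groups. These data do not show that the genes are particular to hyphae. Their summed level was 10085 to 10459 RPKM with tyrosol and 9458 to 10576 RPKM without. These sums are scaled by library totals alone. The TMM factors behind the calls were 0.919 to 0.929 for tyrosol libraries and 1.07 to 1.09 for untreated ones. Dividing by them would raise the tyrosol sums and lower the untreated ones, so the likeness of the sums rests on the scaling. The sums also hold unlike genes: 3 of the 4 were lower and 1 was higher. The gpdA transcript (AN8041) had 1435 ± 91.7 RPKM with tyrosol and 3749 ± 474 RPKM without, and the unnamed AN4218 had 7680 ± 92.3 RPKM with tyrosol and 4339 ± 177 RPKM without (SD, n = 3 each). Of 7 conidiophore and conidium markers, 6 were tested and all 6 were lower, against 42.9% of tested features. Their summed level was 133 to 169 RPKM with tyrosol and 215 to 246 RPKM without, most of it from the hydrophobin gene rodA. The spore wall gene dewA had at most 3 reads in any library, and the late conidiation regulator wetA 5 reads in each tyrosol library. The part of sporulating cells in the falls of the chitin synthase genes was not tested.

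Genes lying beside a chitin synthase gene in the reference order went both ways, as tested features did in general. Of the 14 such neighbours that are no members, 12 were tested, with 7 higher, 4 lower and 1 not called, against 40.6% of tested features higher and 42.9% lower. AN1554, listed as chs3 and next to AN1555, had 65.8 ± 4.63 RPKM with tyrosol and 37.2 ± 3.21 RPKM without (log2 fold change 1.05 ± 0.09, edgeR adjusted p = 2.2e-07). It is not among the 8 genes, and its role is not given by the table. AN6319, on the other side of csmA, had a log2 fold change of -3.96 ± 0.31. AN1046 stood between AN1047, listed as hsp88, at -1.75 ± 0.08 and AN1045 at -1.38 ± 0.09, both lower while AN1046 was higher. Strand was not stated for the counts, so reads of overlapping neighbours could be shared.

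Likeness across the 6 libraries was sought among genes that have a symbol and average 3 or more in log2 CPM. The gene with the pattern of log2 CPM most like that of csmB was csmA (Pearson r = 0.995, n = 6). For csmA it was the phosphoglucomutase gene pgmA (AN2867, r = 0.998), for AN2523 flbB (AN7542, r = 0.997), for AN7032 cit1 (AN8275, r = 0.9999) and for AN4367 flbA (AN5893, r = 0.996). The closest to AN1555 was actin, act1 (r = 0.996), to AN4566 asf1 (AN4891, r = 0.972) and to AN1046 the proline transporter gene prnB (AN1732, r = 0.982). The libraries share the split into 2 groups, so high values are common. For AN7032, 2564 other tested features (28.8%) reached r of at least 0.95, while for AN4566 169 (1.90%) did.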

How the data were processed

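Libraries were made from total RNA of lyophilized mycelium with the TruSeq RNA kit, per the labels' protocols. Tools listed in the submitters' processing notes are HISAT2 2.1.0, FastQC, edgeR and DESeq2 1.24.0, without their roles. The genome build, annotation, counter and strand setting were not given in the sources used here. The deposited read counts are whole numbers, not normalized. The deposited RPKM values equal count over listed length and column total (largest relative difference 1.26e-14). Columns headed T were read as tyrosol and K as untreated (Hungarian for control), numbered as in the titles. Gene symbols are those of RefSeq's table for assembly ASM1142v1, which matched 10029 features and all 8 members; no sequence was printed.

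The test was that of edgeR 4.0.16 under R 4.3.3 (filterByExpr, TMM factors, two-sided quasi-likelihood test, no covariate). It was run on simulated data in which only a small part of the features changed. Far more changed here, so that run cannot show how the scaling behaves in these data. Each SE was taken as the absolute log2 fold change over the square root of F. Ratios of 2 members were tested by exact permutation over libraries. RPKM is scaled by library totals and fold changes by TMM, so their ratios differ. Replicates differed by more than sampling noise in every pair (chi-square over degrees of freedom 5.15 to 23.0). All members, the genes of the pathway lists and the most alike gene of each member are named. Of the neighbours and the marker lists only some are named. The rule for the members uses no values, but the family and the lists were taken up with earlier results of these data known. List identifiers were partly assigned from memory, and the table names only some of them.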

Additional observations from a re-analysis of the deposited data

How the results depend on the processing

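The alternatives were other scalings (upper-quartile factors, DESeq2 size factors, library totals alone), dropping the filter on low counts or asking for at least 50 reads in 3 libraries, the DESeq2 1.42.0 Wald test, limma-voom and limma 3.58.1 on log2(RPKM + 1), a block for the replicate number, an adjusted p under 0.01, and leaving out each library in turn. All were planned. Over these, all 119 fold changes of single members kept their direction and call. The number of members called lower was 7 throughout, also in the range of 7 to 7 with 1 library left out, and the number called higher was 1, with 1 to 1 when a library was left out, except under the 50-read filter, where it was 0 because AN1046 was not tested. The weakest adjusted p of any member was 0.0034, for AN4566. On log2(RPKM + 1) the log2 fold change was 0.75 for AN1046 and -2.13 for AN4367, since the added 1 is large beside their RPKM. The falls of AN1555 and AN4566 changed order without untreated replicate 3, where they were -0.51 and -0.43. The summed family RPKM with tyrosol was 0.389 times that without; it was 0.454 times with TMM-scaled RPKM and 0.367 to 0.408 times with 1 library left out. With reads not divided by length, csmB and csmA held larger shares of the family than AN2523 with tyrosol (27.8%, 22.6% and 21.6%), csmB and csmA being the longest genes.

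Same-numbered libraries did not deviate together (r of deviations -0.082, -0.0059 and -0.040). With so few libraries this cannot show whether the numbers pair samples, which the labels do not say. With the replicate block the counts were again 1 higher and 7 lower. For the ratio tests the block gave the same differences (-0.38 and -1.45) with an exact sign-flip p of 0.25, the smallest that 3 pairs allow. With 1 library left out the log2 differences were -0.41 to -0.35 for AN6318 over AN6317 and -1.59 to -1.32 for AN7032 over AN4566, where the exact test cannot go below 0.2. Depth limits AN1046 and AN4367, which had under 100 reads in at least one group.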
